A study of Homo sapiens with 6 samples.

Results

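The 8 genes described here are caspases and proteins that act directly on them: CASP2, CASP6, CASP8, CASP9, CASP10, CFLAR, APAF1 and XIAP. They were taken by symbol from tables of 27968 genes, and their 62 isoforms by gene from tables of 70006 isoforms. The cells were H23, a human lung adenocarcinoma line. They received either an siRNA against HOTAIR-N, a target that the labels name but do not define, or a control siRNA, both delivered with RNAiMAX, and RNA was collected 48 hours later. Each siRNA had 3 transfections, described as independent in the design text, so that 3 libraries with HOTAIR-N siRNA stood against 3 with control siRNA. All libraries were of total RNA depleted of ribosomal RNA, prepared with a stranded kit. The groups hold a single cell line and a single siRNA for each arm, and no untransfected cells were analysed here. Only RNA was measured, not caspase cleavage or activity.

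Caspases are proteases that cut after aspartate and lie in cells as inactive precursors. In the extrinsic route, death receptors gather CASP8 and CASP10 through the adaptor FADD, and the products of CFLAR, known as c-FLIP, compete for that platform. In the intrinsic route, cytochrome c released from mitochondria makes APAF1 assemble the apoptosome, which activates CASP9, while XIAP binds and blocks CASP9 and the executioner caspases. CASP2 is an initiator activated on a platform of its own, and CASP6 is an executioner that cuts nuclear lamins.

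The members differ at the codon that sets a protease apart from a decoy. The 30 bases of coding sequence around the active-site codon are shown for the 5 caspases, with the same place in CFLAR. CFLAR was lined up on 4 codons ahead of that place, which encode the same amino acids in CASP8, CASP10 and CFLAR. Capitals mark the active-site codon or its counterpart. The sequences are from GENCODE release 29 transcripts.
CASP8: ttttttattcaggctTGTcagggggataac
CASP10: tttttcatccaggccTGCcaaggtgaagag
CASP9: tttttcatccaggccTGTggtggggagcag
CASP2: ttcttcatccaggccTGCcgtggagatgag
CASP6: tttatcattcaggcaTGTcggggaaaccag
CFLAR: ttttttattcagaacTATgtggtgtcagag
The codon reads cysteine, the catalytic residue, in all 5 caspases, and tyrosine in the CFLAR-201 transcript, of 480 codons. For CFLAR it is shown for this transcript alone. The CFLAR isoform NM_001308043, for example, has only 250 codons. It is codon 419 of the CASP8-205 transcript, 401 of CASP10-202, 287 of CASP9-201, 320 of CASP2-201, 163 of CASP6-201 and 360 of CFLAR-201.

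The libraries held 32715361 to 35329948 expected counts with HOTAIR-N siRNA and 34715341 to 36578681 with control siRNA. HOTAIR itself stood at 2.26, 1.87 and 1.99 TPM (a level adjusted for transcript length and library size) with HOTAIR-N siRNA, against 4.19, 3.87 and 4.87 TPM with control siRNA, and fell by 1.04 on the log2 scale (SE 0.14, adjusted p = 1.32e-05, edgeR). Of 15072 genes tested, 8672 passed the threshold, an adjusted p under 0.05 in edgeR's quasi-likelihood test with Benjamini-Hochberg adjustment. Control replicate 1 stood farthest from its group, with a chi-square per degree of freedom of 14.0 and 12.7 against the other controls and 6.75 between those, and the results that turn on it are given with and without it. The 10 markers of lung epithelium and lung adenocarcinoma summed to 2924 to 3295 TPM with HOTAIR-N siRNA and 3717 to 4425 TPM with control siRNA, nearly all of it from the keratins KRT8 and KRT18. Of this list KRT18 fell (log2 fold change -0.71), NKX2-1 (1.02), KRT7 (1.05) and CDH1 (1.07) rose, and KRT8 (0.11) did not pass, while the surfactant genes SFTPB and SFTPC were at or near 0 in all 6 libraries. The 4 leukocyte markers summed to 10.4 to 11.6 TPM against 10.1 to 11.9 TPM, with PTPRC and CD3E at or near 0, and the 3 endothelial markers to 0.35 to 0.43 TPM against 0.21 to 0.31 TPM, with PECAM1 at or near 0. The 3 fibroblast markers summed to 2.66 to 3.04 TPM with HOTAIR-N siRNA and 1.47 to 1.71 TPM with control siRNA, mostly LUM, with DCN at or near 0. The part of these markers in the results below was not tested.

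CASP8, CASP10, CASP9 and CFLAR rose with HOTAIR-N siRNA, CASP2 fell, and CASP6, APAF1 and XIAP did not pass the test. These are 5 of 8 members, beside 57.5% of all tested genes, so the share of members that passed was near the background. By direction, 4 of 8 members were higher, where 28.7% of all tested genes passed as higher, and 1 of 8 was lower, where 28.8% passed as lower. The groups of 3 libraries did not overlap in CPM (counts scaled to library size, with no length adjustment) for 5 members, beside 62.9% of all tested genes. The median log2 fold change of the members was 0.26, against 0.01 for all tested genes, and the median size regardless of sign was 0.34, against 0.29. All 8 passed the filter on low counts, CASP10 through its HOTAIR-N siRNA libraries alone. Since RNA was taken from whole cultures, fewer cells expressing a gene and less of its RNA per cell cannot be told apart.

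**Figure D1:**
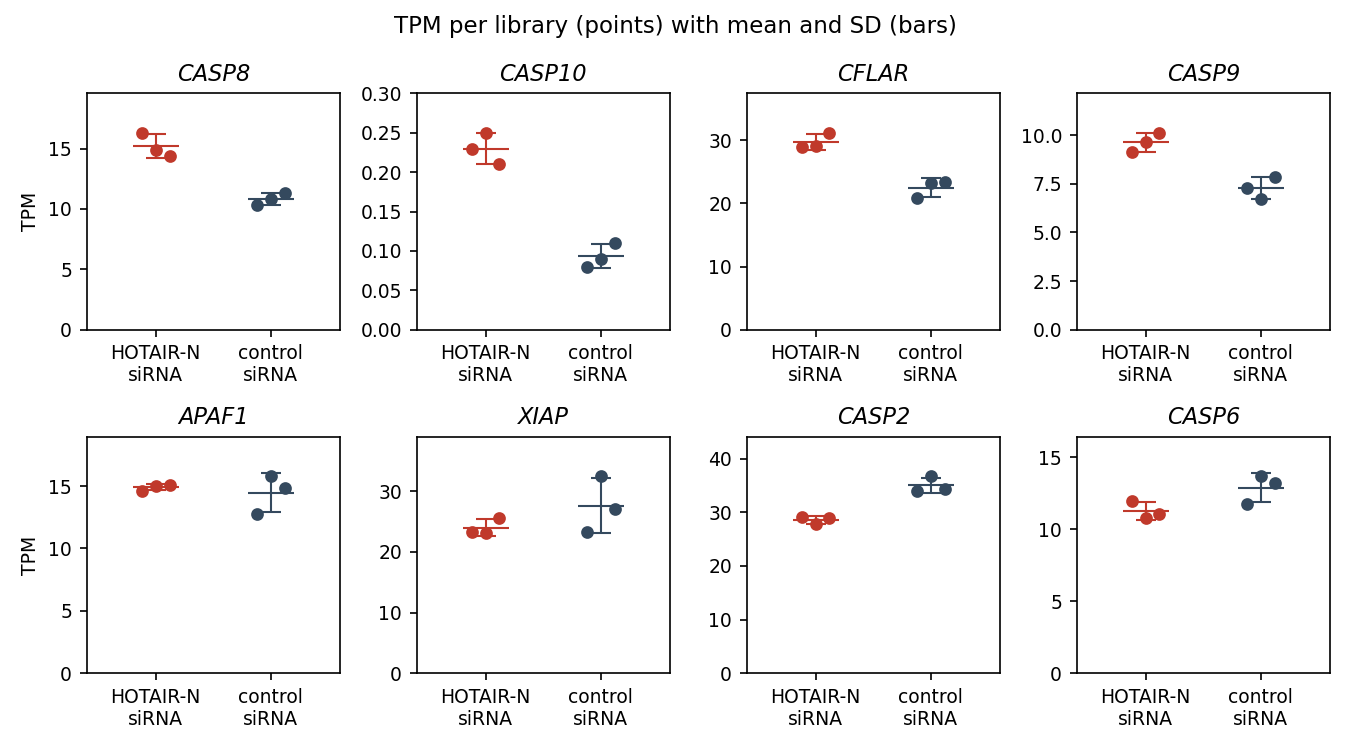
TPM of each gene in the 3 libraries with HOTAIR-N siRNA (left, red) and the 3 with control siRNA (right, dark), each panel on its own linear axis from 0, with the group mean and SD as bars. The groups stand apart for CASP8, CASP10, CFLAR, CASP9 and CASP2 and overlap for APAF1, XIAP and CASP6.

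In the death-receptor arm, CASP8, the initiator caspase of that route, stood at 16.30, 14.91 and 14.35 TPM with HOTAIR-N siRNA, against 10.36, 10.85 and 11.33 TPM with control siRNA. The lowest HOTAIR-N siRNA library lay above the highest control library. CASP8 rose by 0.53 on the log2 scale (SE 0.08, adjusted p = 4.83e-05, edgeR), and 73.3% of tested genes had a smaller change regardless of sign.

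CASP10, the paralog of CASP8 that joins the same platform, was near the limit of detection. It had 15, 25 and 16 expected counts with HOTAIR-N siRNA, against 7, 7 and 8 with control siRNA. In TPM this was 0.23, 0.25 and 0.21, against 0.08, 0.09 and 0.11, without overlap. The fold change was the largest of the 8, at 1.38 on the log2 scale (SE 0.34, adjusted p = 0.00286, edgeR). It was 1.11 without HOTAIR-N siRNA replicate 2, the library with 25 counts, and still passed (adjusted p = 0.0231, edgeR). On the log2(TPM + 0.5) scale, which understates changes of low genes, limma gave 0.30. At this depth the gene rests on so few reads that none of its 7 isoforms passed the filter.

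CFLAR, the catalytically inactive relative of CASP8, had the highest mean level of the 8 with HOTAIR-N siRNA. Its values were 28.86, 29.09 and 31.16 TPM with HOTAIR-N siRNA, against 20.81, 23.27 and 23.40 TPM with control siRNA, and the groups did not overlap. It rose by 0.43 on the log2 scale (SE 0.06, adjusted p = 1.42e-05, edgeR). CFLAR and CASP8, whose recruitment it competes for, thus both rose. The ratio of the pair was not tested.

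The 3 genes of this arm lie side by side on chromosome 2, in the order CFLAR, CASP10 and CASP8, with no other tested gene between them. Of the 10 nearest tested neighbours, 5 on each side, 4 rose, 3 fell and 3 did not pass, with log2 fold changes of -0.38 to 0.56. Over all tested genes 57.5% passed, 28.7% as higher and 28.8% as lower. Whether the neighbours differ from that share was not tested. The neighbours closest to CFLAR, NDUFB3 and ORC2, passed as higher at 0.40 and 0.34, and the next, NIF3L1, passed as lower at -0.38. Beyond CASP8, the next tested gene, TRAK2, was at -0.09 (adjusted p = 0.213, edgeR).

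Within the intrinsic arm, CASP9, the initiator of the apoptosome, stood at 9.14, 9.63 and 10.11 TPM with HOTAIR-N siRNA, against 7.26, 6.71 and 7.83 TPM with control siRNA. The groups did not overlap, and CASP9 rose by 0.49 on the log2 scale (SE 0.09, adjusted p = 0.000201, edgeR). Its partner APAF1, the scaffold of the apoptosome, had 14.64, 14.98 and 15.12 TPM with HOTAIR-N siRNA, against 12.76, 15.78 and 14.88 TPM with control siRNA. In TPM the HOTAIR-N siRNA libraries lay inside the range of the control libraries. In CPM they stood at 55.18, 55.73 and 55.98, against 47.4, 55.26 and 54.14 with control siRNA, and the groups also overlapped. The log2 fold change of 0.09 (SE 0.07, adjusted p = 0.263, edgeR) did not pass. The expected counts of APAF1 were not whole numbers, so part of its reads had been divided with another gene.

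XIAP, the inhibitor of CASP9 and of executioner caspases, had 23.27, 23.06 and 25.65 TPM with HOTAIR-N siRNA, against 23.36, 32.46 and 27.07 TPM with control siRNA. Control replicate 1 was as low as the HOTAIR-N siRNA libraries. The log2 fold change of -0.14 (SE 0.08, adjusted p = 0.157, edgeR) did not pass with all 6 libraries. Without control replicate 1 it was -0.23 and passed (adjusted p = 0.00473, edgeR), and without control replicate 2 it was -0.04.

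CASP2 was the member that fell. It had 29.10, 27.77 and 28.90 TPM with HOTAIR-N siRNA, against 33.98, 36.68 and 34.32 TPM with control siRNA, without overlap, and fell by 0.25 on the log2 scale (SE 0.06, adjusted p = 0.00137, edgeR). This was a small change in these data, since 45.2% of tested genes changed by less and the median size over all tested genes was 0.29. CASP6, the executioner that cuts lamins, had 11.97, 10.79 and 11.09 TPM with HOTAIR-N siRNA, against 11.73, 13.67 and 13.24 TPM with control siRNA. Control replicate 1 lay among the HOTAIR-N siRNA libraries, and the log2 fold change of -0.14 (SE 0.09, adjusted p = 0.168, edgeR) did not pass.

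By mean TPM over the libraries with HOTAIR-N siRNA, the order was CFLAR (29.7 ± 1.27, SD, n = 3), CASP2 (28.6 ± 0.717), XIAP (24.0 ± 1.44), CASP8 (15.2 ± 1.00), APAF1 (14.9 ± 0.247), CASP6 (11.3 ± 0.613), CASP9 (9.63 ± 0.485) and CASP10 (0.23 ± 0.02). The ranges of CFLAR and CASP2 overlapped, as did those of CASP8 and APAF1. With control siRNA the order was CASP2 (35.0 ± 1.47), XIAP (27.6 ± 4.58), CFLAR (22.5 ± 1.46), APAF1 (14.5 ± 1.55), CASP6 (12.9 ± 1.02), CASP8 (10.9 ± 0.485), CASP9 (7.27 ± 0.56) and CASP10 (0.0933 ± 0.0153). There the ranges of XIAP and CFLAR overlapped, as did those of APAF1 and CASP6. CFLAR thus stood above CASP2 in mean level with HOTAIR-N siRNA and below it with control siRNA, and CASP8 likewise stood above CASP6 with HOTAIR-N siRNA and below it with control siRNA.

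Isoforms were followed for all 8 genes. Of the 62, 11 were at 0 in every library and 31 passed the filter. Among those 31, 3 rose, 3 fell and 25 did not pass, beside 19.5% of 32627 tested isoforms that passed in either direction, 9.39% as higher and 10.1% as lower. RSEM divides reads that match several isoforms, and the error of that division is not in the tables. An isoform that missed the threshold is therefore not shown to be unchanged. Whether the isoforms of 1 gene shifted against each other was asked with the diffSpliceDGE function of edgeR and Simes p-values. This could be asked of 6 members and passed for 1, XIAP, beside 4.13% of 7523 tested genes.

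CASP9 is made in a long form that carries the active site and in a short form known to interfere with the long form. The long isoform NM_001229 encodes 416 codons. The short isoform NM_001278054 encodes 266 codons and skips a stretch of 450 nt that holds the active-site codon shown above. Its coding sequence runs across the join as follows, with the 15 bases ahead of the join in capitals.
CASP9-202: GATTTGGTGATGTCGagcagaaagaccatg
The long isoform made up 97.1%, 86.7% and 91.0% of CASP9 with HOTAIR-N siRNA, against 68.6%, 67.1% and 72.4% with control siRNA. The short isoform made up 2.92%, 4.33% and 4.90% with HOTAIR-N siRNA, against 18.09%, 18.51% and 25.00% with control siRNA. Neither isoform's share overlapped between the groups. The long isoform rose by 0.85 on the log2 scale (SE 0.12, adjusted p = 0.00755, edgeR) and passed with any 1 library left out. The short isoform had 11.41, 18.27 and 22.64 expected counts with HOTAIR-N siRNA, against 58.42, 52.52 and 89.46 with control siRNA. It fell by 1.88 on the log2 scale (SE 0.41, adjusted p = 0.0282, edgeR), but missed the threshold whichever library was left out, with adjusted p between 0.0623 and 0.105. The test of isoform use for CASP9 did not pass (Simes adjusted p = 1.0, unadjusted p = 0.528, diffSpliceDGE in edgeR).

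XIAP showed the largest fold change among the isoforms that passed. Its non-coding isoform NR_037916 made up 2.61%, 3.37% and 1.49% of the gene with HOTAIR-N siRNA, against 14.6%, 14.1% and 12.4% with control siRNA. It fell by 2.62 on the log2 scale (SE 0.30, adjusted p = 0.00368, edgeR) and passed with any 1 library left out. The coding isoform NM_001167, of 497 codons, made up 91.1%, 80.5% and 90.8% of the gene with HOTAIR-N siRNA, against 73.5%, 68.8% and 70.2% with control siRNA, again without overlap. Its own level did not pass, with a log2 fold change of 0.16 (SE 0.11, adjusted p = 0.404, edgeR). The second coding isoform, NM_001204401, was at -0.81 (SE 0.41, adjusted p = 0.259, edgeR). The shift of use passed with all libraries (Simes adjusted p = 0.0196, edgeR) and, of the 6 fits with a library left out, only in the one without HOTAIR-N siRNA replicate 2. There it was 0.0111, and in the other fits it lay between 0.0691 and 0.117.

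APAF1 isoforms differ by a stretch of 129 nt, or 43 codons, which is known to add a WD40 repeat to the part of the protein that senses cytochrome c. Because the main APAF1 isoforms are told apart by it, it is shown here whole.
APAF1-210: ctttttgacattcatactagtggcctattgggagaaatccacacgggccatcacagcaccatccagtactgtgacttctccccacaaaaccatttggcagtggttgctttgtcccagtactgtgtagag
The isoform with the stretch, NM_181861 (1248 codons), made up 66.8%, 73.0% and 75.5% of APAF1 with HOTAIR-N siRNA, against 66.4%, 57.7% and 56.5% with control siRNA. HOTAIR-N siRNA replicate 1 and control replicate 1 were nearly level. The isoform rose by 0.36 on the log2 scale (SE 0.07, adjusted p = 0.0161, edgeR), and missed the threshold without control replicate 2 or 3 or HOTAIR-N siRNA replicate 2 or 3, with adjusted p of 0.0508 to 0.0685. The isoform without the stretch, NM_181868 (1205 codons), made up 28.98%, 24.63% and 24.52% with HOTAIR-N siRNA, against 30.9%, 42.3% and 41.4% with control siRNA. Its log2 fold change of -0.47 (SE 0.20, adjusted p = 0.174, edgeR) did not pass, while without control replicate 1 it was -0.67 (adjusted p = 0.018, edgeR).

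CASP2 and CASP8 each had 1 isoform that passed. The main CASP2 isoform NM_032982 made up 72.3%, 75.6% and 69.6% of the gene with HOTAIR-N siRNA, against 84.6%, 81.0% and 73.0% with control siRNA, with overlapping shares. It fell by 0.37 on the log2 scale (SE 0.08, adjusted p = 0.0223, edgeR), and missed the threshold in 4 of the 6 fits with a library left out (adjusted p of 0.0535 to 0.0769), those without control replicate 2 or any 1 HOTAIR-N siRNA replicate. The other CASP2 isoform, NM_001224, was at 0.20 (SE 0.22, adjusted p = 0.638, edgeR). The CASP8 isoform NM_001080125, of 538 codons, made up 41.1%, 37.0% and 43.5% of the gene with HOTAIR-N siRNA, against 34.6%, 31.4% and 41.0% with control siRNA. It rose by 0.72 on the log2 scale (SE 0.17, adjusted p = 0.0364, edgeR), and passed among the 6 such fits only in the one without control replicate 3. The CASP8 isoforms NM_033355 and NR_111983 were at 0.88 and 0.90 and did not pass (adjusted p of 0.209 and 0.14, edgeR). The main CASP6 isoform, NM_001226, made up 95.1% and 97.8% of the gene in replicates 1 and 2 with HOTAIR-N siRNA, against 98.2% and 93.5% with control siRNA, and the whole of it in replicate 3 of both groups.

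CFLAR is spliced into long and short forms of c-FLIP, and 29 isoforms were listed. None of the 11 that were tested passed. The short form NM_001127184 stood at 9.06, 8.32 and 10.67 TPM with HOTAIR-N siRNA, against 3.93, 6.76 and 7.38 TPM with control siRNA. Those levels did not overlap, but the log2 fold change of 0.70 (SE 0.26, adjusted p = 0.133, edgeR) did not pass. NM_001351591, the other abundant isoform, was at 0.38 (SE 0.18, adjusted p = 0.225, edgeR). NM_001202518 was listed at 0 in control replicates 1 and 2, yet at 548.32 expected counts in control replicate 3 and at 532.91 to 637.13 with HOTAIR-N siRNA. The rise of CFLAR was therefore measured for the gene as a whole and could not be assigned to a form.

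**Figure D2:**
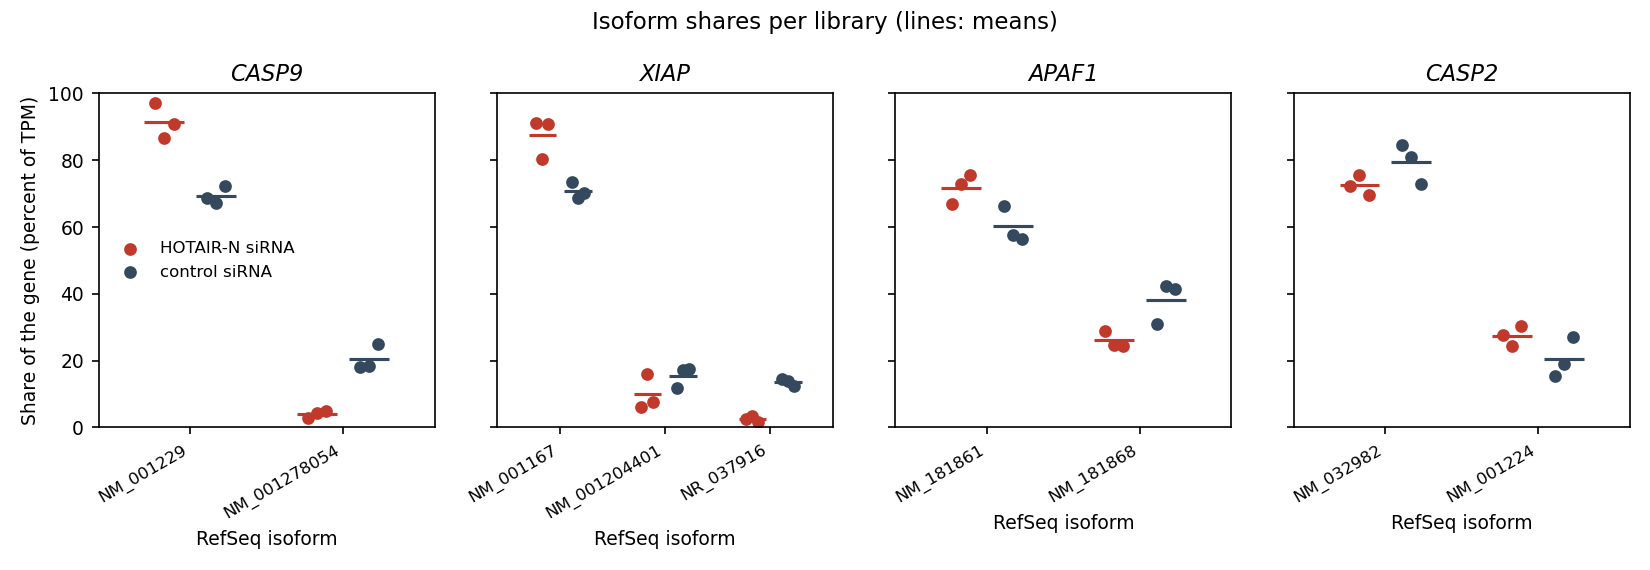
Share of each gene's TPM held by its main RefSeq isoforms, in percent as deposited, in the 3 libraries with HOTAIR-N siRNA (left, red) and the 3 with control siRNA (right, dark); lines are group means. The short CASP9 isoform NM_001278054 and the non-coding XIAP isoform NR_037916 lie under 5% in every HOTAIR-N siRNA library and above 12% in every control library.

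Other genes of the caspase pathway were read from the same fit in 5 lists, of which 50 of 58 genes in the tables were tested. In all, 18 rose, 12 fell and 20 did not pass, where 57.5% of all tested genes passed, 28.7% as higher and 28.8% as lower, so the share was near the background. The median log2 fold change was 0.07, against 0.01 for all tested genes. Of the caspases outside the 8, the inflammatory caspase CASP4 rose by 1.70 (SE 0.17, adjusted p = 7.89e-07, edgeR).

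The other inhibitors of apoptosis (IAPs) and their antagonists comprised 11 genes, of which 9 were tested. Of these, 6 rose (28.7% of all tested genes did), 2 fell (28.8%) and 1 missed the threshold, with a median of 0.34. BIRC7, among the 6, passed the filter on low counts through its HOTAIR-N siRNA libraries alone. BIRC2 and BIRC3, which encode cIAP1 and cIAP2, ubiquitin ligases at the TNF receptor, rose by 0.55 and 0.68 (adjusted p of 6.99e-06 and 8.31e-07, edgeR). HTRA2, a mitochondrial protease that antagonises XIAP, rose by 0.52 (SE 0.06, adjusted p = 3.05e-06). BIRC5, which encodes survivin and also serves in cell division, fell by 0.61 (SE 0.05, adjusted p = 2.04e-07). The genes of this list that rose include both inhibitors and antagonists of inhibitors.

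Among death receptors and initiator platforms, 14 genes were tested. The 4 that rose were matched by 4 that fell, and 6 missed the threshold, beside 57.5% of all tested genes that passed, with a median of 0.01. The receptors TNFRSF1A and FAS rose by 0.58 and 0.52 (adjusted p of 9.28e-07 and 2.11e-05, edgeR). PEA15, which like CFLAR carries a death effector domain and can block recruitment of CASP8, fell by 0.42 (SE 0.06, adjusted p = 1.24e-05). RIPK1, the kinase shared by survival and death complexes of the TNF receptor, fell by 0.29 (SE 0.06, adjusted p = 0.00085).

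Of 10 genes of cytochrome c release and the apoptosome, 2 rose, 2 fell and 6 missed the threshold, beside the same 57.5%, with a median of -0.10. CYCS, cytochrome c itself, rose by 0.57 (SE 0.07, adjusted p = 1.11e-05, edgeR), and PTMA, whose product prothymosin alpha restrains the apoptosome, fell by 0.57 (SE 0.05, adjusted p = 2.41e-07). NOL3, a caspase-recruitment-domain inhibitor of apoptosis, was at 0.28 (SE 0.09, adjusted p = 0.0201) and missed the threshold in 4 of the 6 fits with a library left out, those without replicate 2 or 3 of either group, and with limma on log2(TPM + 0.5). ANP32A, which promotes the apoptosome, was at -0.16 (SE 0.05, adjusted p = 0.0149) and missed it without control replicate 3 or HOTAIR-N siRNA replicate 2 or 3.

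Of 15 caspase substrates and genes of the execution phase, 14 were tested, 3 rose, 4 fell and 7 did not pass, again beside 57.5% of all tested genes that passed. PANX1, a membrane channel opened by caspase cleavage, rose by 0.45 (SE 0.07, adjusted p = 3e-05, edgeR). The kinase gene STK24 fell by 0.40 (SE 0.05, adjusted p = 2.02e-05), and DFFA, the inhibitor of the caspase-activated DNase, fell by 0.21 (SE 0.05, adjusted p = 0.00501). SPTAN1, which encodes the cleaved cytoskeletal protein alpha-spectrin, rose by 0.20 (SE 0.06, adjusted p = 0.00854), but missed the threshold with limma on log2(TPM + 0.5), at 0.15 (adjusted p = 0.077).

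**Figure D3:**
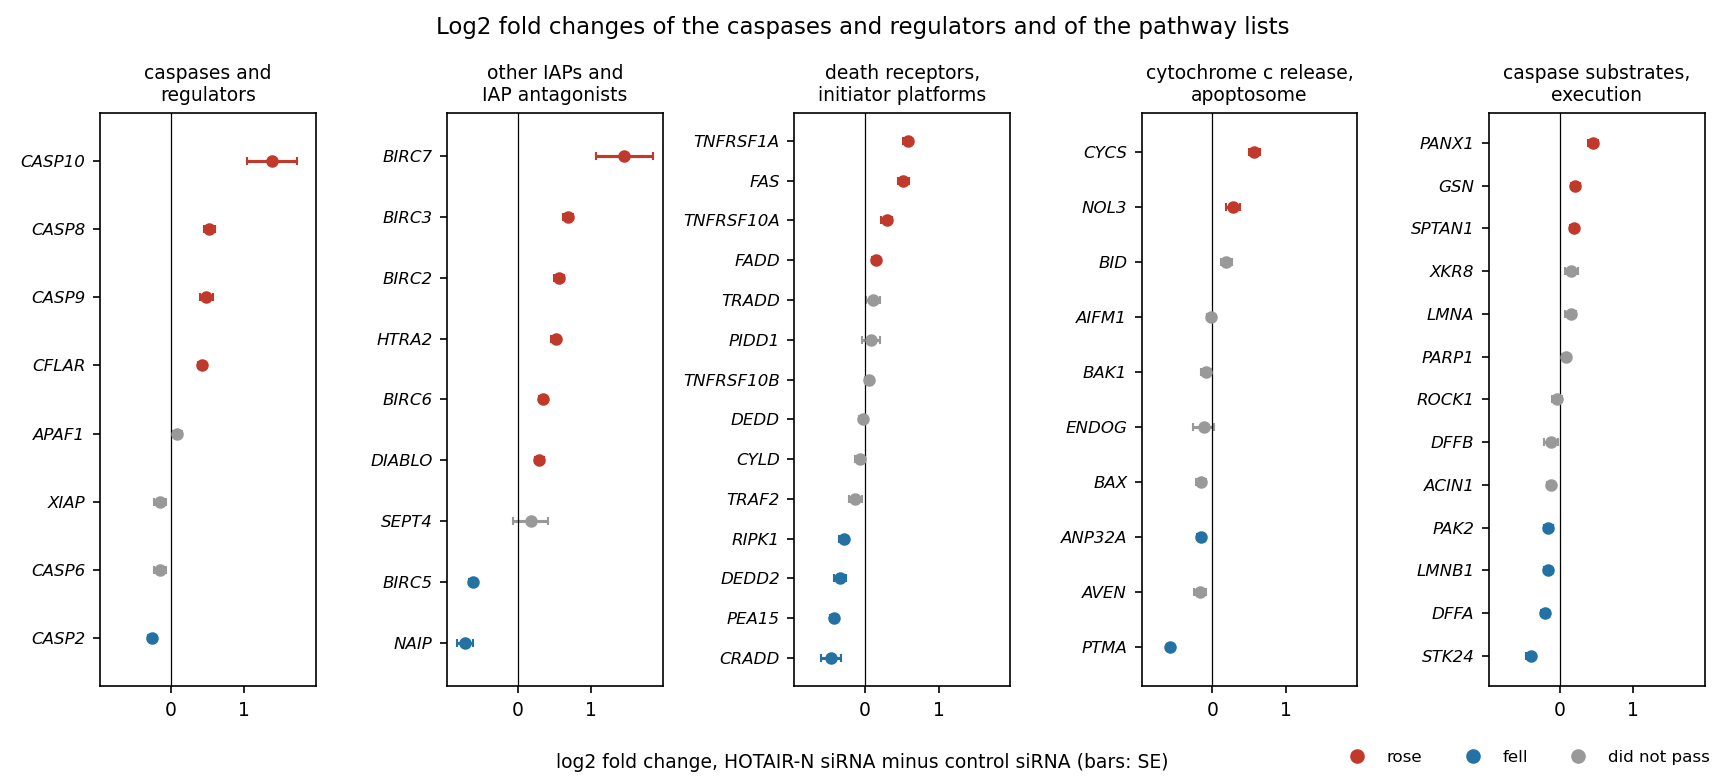
Log2 fold changes (HOTAIR-N siRNA minus control siRNA, with SE bars) of the 8 genes and of tested genes of 4 pathway lists, coloured by whether the gene rose (red), fell (blue) or did not pass (grey). Of the 8 genes, 4 lie right of 0 and passed, while the substrates and the cytochrome c list lie on both sides.

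The pathway gene whose profile lay closest to a member was found by the root mean square distance of log2(CPM + 0.5). Values were centred on the mean of the 6 libraries. CASP6 lay closest to LMNB1 (0.037) and CASP2 to RIPK1 (0.047). CASP8 lay closest to FAS (0.061), XIAP to CYLD (0.067) and CASP9 to HTRA2 (0.091). CASP10 lay 0.135 from its closest gene, also HTRA2. The added 0.5 understates changes of low genes, so this closeness is not a like fold change. In edgeR CASP10 was at 1.38 and HTRA2 at 0.52. The 6 libraries share the siRNA contrast, so that genes with a like fold change lie close by this measure.

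Promoter windows from RefSeq (GRCh38.p14, 250 bases ahead of the start to 50 after) were found for 7 of the 8 members and searched on both strands for a kappaB word (GGG, any 3 bases, then TTCC) and an interferon-response word (GAAA, any 2 bases, then GAAA), because CFLAR is a textbook NF-kappaB target and CASP8 is known to respond to interferon. Each word was in 1 of the 7 members. The kappaB word was in CFLAR, and in 10.0% of 11268 tested genes. The interferon word was in CASP8, and in 3.82% of those genes. Of all 35116 windows, 6.52% held the kappaB word and 3.57% the interferon word. The windows are shown 5′ to 3′ on the plus strand with the word in capitals. The CFLAR window is chr2:201118466-201118765 and its word begins 97 bases ahead of the start. The CASP8 window is chr2:201233213-201233512, where the word reads on the other strand and spans the start.
CFLAR: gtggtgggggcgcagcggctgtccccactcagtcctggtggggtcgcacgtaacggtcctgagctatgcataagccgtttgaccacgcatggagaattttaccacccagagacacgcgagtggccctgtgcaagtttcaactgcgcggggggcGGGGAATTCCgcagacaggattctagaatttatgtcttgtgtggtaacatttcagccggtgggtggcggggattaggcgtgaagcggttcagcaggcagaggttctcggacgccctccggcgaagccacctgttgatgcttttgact
CASP8: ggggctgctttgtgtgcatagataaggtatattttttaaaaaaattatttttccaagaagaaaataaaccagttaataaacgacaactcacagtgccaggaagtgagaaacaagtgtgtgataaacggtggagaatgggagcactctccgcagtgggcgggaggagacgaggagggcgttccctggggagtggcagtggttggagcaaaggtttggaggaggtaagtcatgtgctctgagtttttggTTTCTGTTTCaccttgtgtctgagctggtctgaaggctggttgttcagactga
A match is a word in the window and does not show binding.

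The word GACCAAT in 3′ UTRs was searched because earlier work on these data had related it to lower expression with HOTAIR-N siRNA. It was in 860 of 13301 searched genes, or 6.47%, whose median log2 fold change was -0.33, against 0.011 for genes without it. Of the 8 members it was in CFLAR alone, which rose. The matches lay at bases 5296 and 12354 of the 12714 nt 3′ UTR of CFLAR-201. That transcript has 14672 nt, whereas the longest CFLAR isoform in the deposited data has 11512 nt. None of the deposited CFLAR isoforms is therefore long enough to reach base 12354. The abundant CFLAR isoforms NM_001127184 (1348 nt) and NM_001351591 (1381 nt) are too short to reach those positions. They made up means of 31.4% and 27.3% of CFLAR with HOTAIR-N siRNA, and 26.5% and 28.9% with control siRNA. The part of the word, or of these isoforms, in the change of CFLAR was not tested.

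**Figure D4:**
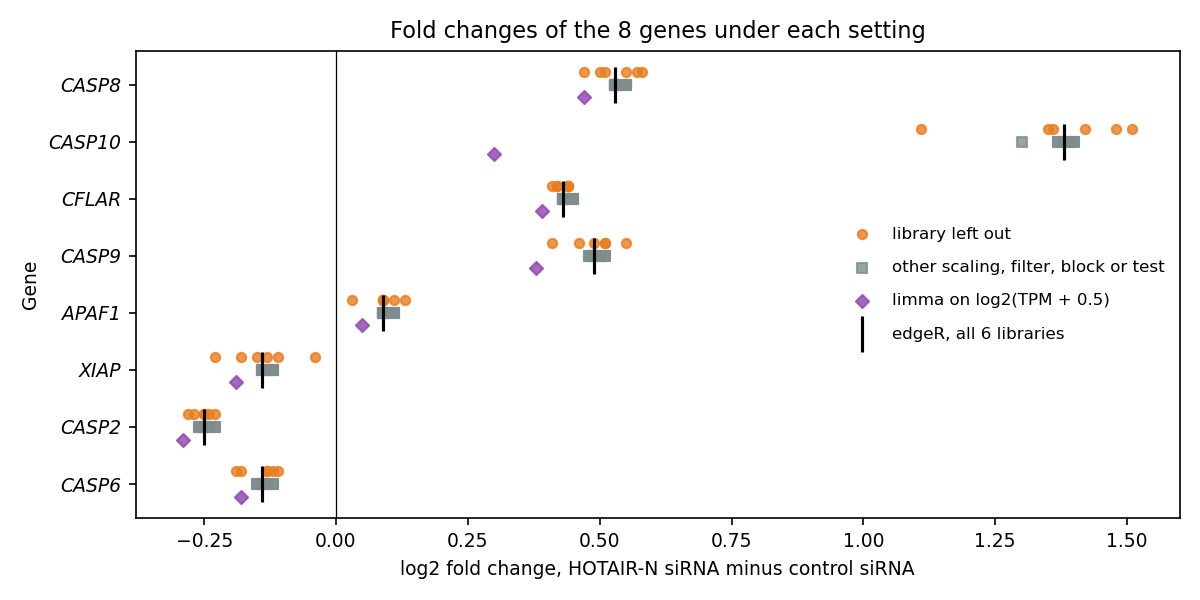
Log2 fold changes (HOTAIR-N siRNA minus control siRNA) of the 8 genes with all 6 libraries in edgeR (black line), with each library left out (orange), under other scalings, filters, the replicate block and other count tests (grey) and with limma on log2(TPM + 0.5) (purple). Each gene stays on its side of 0; CASP10 moves most, to 0.30 on the TPM scale.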

How the data were processed

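RNA of 6 libraries was compared, 3 with HOTAIR-N siRNA and 3 with control siRNA, grouped by their titles. STAR 2.6.0c, RSEM 1.3.0 and the hg19 build are listed in the submitters' processing notes. Neither the annotation release nor the strandedness of counting is given in the sources used here, so overlapping or antisense genes, such as CFLAR-AS1 at CFLAR, cannot be separated with certainty. Per the file headers the deposited expected counts are RSEM's estimated reads per gene or isoform, and 10.9% of gene values and 42.2% of isoform values were not whole. The deposited TPM values are length-adjusted levels that the authors scaled within each library. The deposited percent is each isoform's share of its gene.

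After rounding, the expected counts went into edgeR 4.0.16 under R 4.3.3 (filterByExpr by group, TMM, robust quasi-likelihood test, Benjamini-Hochberg over all tested genes or isoforms, threshold 0.05); isoform use was tested with diffSpliceDGE. A positive log2 fold change means a higher level with HOTAIR-N siRNA, and SE is its standard error. The steps were tested on simulated data, where the isoform test missed most of the changed isoforms. The share of false calls ran above the threshold, and more so for genes than for isoforms. Alternatives were library sizes scaled by RLE or upper quartile or left unscaled, omission of the filter, a stricter filter (5 CPM in 3 libraries), a replicate block, each library left out, DESeq2 1.42.0, limma 3.58.1 (voom, and log2(TPM + 0.5)) and a test against a fold of 1.5.

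Named were HOTAIR, all members, their isoforms with a mean share of at least 10 percent in either group, up to 4 genes of each pathway list with the smallest p, and each member's closest gene. Some items that these rules take are not reported here. Members and lists were chosen with earlier results of these data known. Chromosomal neighbours, chosen by position, and the words searched in promoters and 3′ UTRs were added after values had been seen. Coding sequences and 3′ UTRs came from GENCODE release 29 on another build than the deposited tables, so coordinates were not carried over. FPKM columns were not used.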

Additional observations from a re-analysis of the deposited data

How the results depend on the processing

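The count of changed members was 5 under the other scalings, without a filter, with DESeq2, limma-voom, limma on log2 TPM and the replicate block, 4 under the stricter filter, which drops CASP10, and 5 to 6 with a library left out. Tested against a fold of 1.5, 1700 genes (11.3%), 1 member (CASP10, adjusted p = 0.0458, edgeR) and 1 pathway gene (CASP4) passed. CASP10 had entered the test through its HOTAIR-N siRNA libraries alone, with 7, 7 and 8 expected counts in the control libraries. CASP2 (-0.25), CASP8 (0.53), CASP9 (0.49) and CFLAR (0.43) kept their direction but did not pass. With a library left out, genes changed ranged from 7503 to 9234, and pathway genes changed from 24 to 33, against 30 with all libraries. XIAP then ranged from -0.23, which passed without control replicate 1, to -0.04.

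Isoform calls moved more. With a library left out they ranged from 3551 to 5647 of all isoforms, against 6362 with all libraries, and from 2 to 5 member isoforms, against 6; isoform use passed for 0 to 1 members. The call without control replicate 3 was CFLAR, and there NM_001202518, at 0 in the controls that remain, was given a fitted value of 12.22, which is no bound. The CASP8 isoform NM_001080124, at -0.01, changed sign with the replicate block (0.01), with limma-voom (0.00) and with a library left out (-0.25 to 0.33).

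Libraries with the same replicate number showed no shared deviation (correlations of -0.12, 0.02 and -0.04). With 3 libraries a group this cannot tell whether the numbers pair them. The replicate block left 5 members and 7984 genes changed, with 2012 isoforms and 2 member isoforms.

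Depth limits CASP10, which rests on 7 to 25 counts a library, and every isoform value carries an unstated error from dividing shared reads. With 3 libraries a group and 1 cell line, p-values set a difference only against the spread between these transfections.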
